A study of Homo sapiens with 12 samples.

Results

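Gene expression was compared 3 days after transfection between H1 cells depleted of OCT4 and control cells, H1 being an established line of human embryonic stem cells. The knockdown group at day 3 held 3 arrays of cells transfected with an shRNA (a short hairpin RNA that triggers degradation of a matching transcript) against OCT4, and the control group held 3 arrays of cells transfected with an shRNA against luciferase, an enzyme absent from human cells. These 6 of the 12 arrays of the series were chosen by their titles, and the remaining 6 hold the same 2 treatments at day 2. All groups share the H1 background and the Fugene transfection on the day after seeding. The labels name 1 hairpin against OCT4, so effects of OCT4 loss and other effects of that hairpin cannot be told apart, and they give neither the share of cells transfected nor whether replicates were separate cultures. The p-values therefore cover only how far these samples varied, and that variation may be technical. The study's stated aim was to identify mRNAs targeted by OCT4.

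OCT4, encoded by POU5F1, is a transcription factor that binds an eight-letter DNA motif called the octamer, often next to SOX2 on a joint SOX and octamer site. Together with SOX2 and NANOG it forms the core of the network that keeps embryonic stem cells undifferentiated. Loss of this network allows the cells to take on early lineages such as endoderm, mesoderm, trophoblast or amnion.

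Between 14352 and 14607 of the 48803 probes were detected on the knockdown arrays, against 13475 to 14641 on the control arrays (detection p under 0.01). The fewest, 13475, were detected on control replicate 2. Correlations between arrays were taken across the 15407 probes detected on at least 3 of the 12 arrays of the series. They were 0.98 to 0.992 within the knockdown group, 0.98 to 0.991 within the control group and 0.924 to 0.947 between the groups. The first principal component of the 6 arrays set knockdown and control arrays apart and carried 73.7% of the variance. The second held 16.7% and set replicate 3 of both groups apart, so counts without the replicate 3 arrays are given with the dependence on processing. Intensities were background-corrected, quantile normalised and put on the log2 scale, and all levels below are such normalised log2 intensities. The number of arrays limits the precision.

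POU5F1, the targeted gene, had levels of 9.95, 10.52 and 10.29 on the knockdown arrays, against 13.09, 13.26 and 13.29 on the control arrays. The highest knockdown array lay far under the lowest control array, with a change of -2.96 (SE 0.19, limma adjusted p = 1.24e-07) and 12.9% of the control intensity left. Among tested genes detected on all 6 arrays, no other fell by more. A second POU5F1 probe was detected on 0 of 12 arrays, and POU5F1 has near-identical pseudogenes that the probe may not tell apart, which was not tested. NANOG, the homeobox factor of the core network, had 8.20, 8.62 and 8.16 in knockdown, against 10.13, 10.31 and 10.36 in control. Its groups did not overlap either, and its change of -1.94 (SE 0.18, adjusted p = 3.39e-06) left 26.1% of the control intensity. SOX2, the partner that binds beside OCT4, had 9.83, 10.15 and 9.23 in knockdown and 11.65, 11.47 and 11.41 in control, a change of -1.77 (SE 0.26, adjusted p = 0.000168). A second SOX2 probe gave -1.85.

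The proximal promoters of 5 named genes that hold letters of the OCT4 site are shown because NANOG and SOX2 fell with POU5F1, SFRP2 was among the largest falls and FREM1 among the largest gains. Each sequence is the 250 bases before the start, 5′ to 3′ on the gene's strand, from RefSeq (GRCh38.p14), with the bases of the searched motifs in capitals. These motifs were the octamer ATGCAAAT, its core ATGCAAA, and the SOX motif CATTGT followed after 1 base by the core, on both strands (the octamer contains the core).
NANOG, chr12:7789152-7789401, plus strand: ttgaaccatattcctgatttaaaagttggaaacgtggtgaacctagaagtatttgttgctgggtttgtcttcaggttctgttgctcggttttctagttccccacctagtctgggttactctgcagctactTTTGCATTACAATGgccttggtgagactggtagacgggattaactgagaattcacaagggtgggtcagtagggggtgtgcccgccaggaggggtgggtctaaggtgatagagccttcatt
NRARP, chr9:137302272-137302521, minus strand: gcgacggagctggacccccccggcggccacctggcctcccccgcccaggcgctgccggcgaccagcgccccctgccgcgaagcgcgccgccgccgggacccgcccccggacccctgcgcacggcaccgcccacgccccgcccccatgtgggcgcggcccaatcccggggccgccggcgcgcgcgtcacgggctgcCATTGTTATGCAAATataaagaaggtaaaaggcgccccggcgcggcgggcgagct
SOX2, chr3:181711675-181711924, plus strand: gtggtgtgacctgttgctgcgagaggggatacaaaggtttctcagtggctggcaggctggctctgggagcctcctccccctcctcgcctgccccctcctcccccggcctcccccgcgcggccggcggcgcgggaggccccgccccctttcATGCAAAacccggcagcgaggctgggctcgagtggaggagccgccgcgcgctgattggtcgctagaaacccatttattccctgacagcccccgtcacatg
SFRP2, chr4:153789084-153789333, minus strand: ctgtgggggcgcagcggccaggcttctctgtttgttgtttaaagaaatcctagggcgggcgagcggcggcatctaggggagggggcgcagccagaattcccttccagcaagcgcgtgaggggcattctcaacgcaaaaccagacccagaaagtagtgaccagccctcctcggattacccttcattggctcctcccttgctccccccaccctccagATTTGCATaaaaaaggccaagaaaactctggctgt
FREM1, chr9:14910996-14911245, minus strand: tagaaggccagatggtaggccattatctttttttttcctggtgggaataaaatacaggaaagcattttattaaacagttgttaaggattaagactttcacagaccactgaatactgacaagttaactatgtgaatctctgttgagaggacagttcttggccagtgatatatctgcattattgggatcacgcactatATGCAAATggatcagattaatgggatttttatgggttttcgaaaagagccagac
In NANOG the capitals are the joint SOX and core motif read on the opposite strand, and in NRARP they are the joint motif on the gene's strand, which runs on into a whole octamer. SOX2 holds the core, whereas SFRP2 and FREM1 hold the whole octamer, in SFRP2 on the opposite strand. A match describes letters only and shows no binding.

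Within the bases searched, such motifs were about as frequent in promoters of changed genes as in all promoters. Few promoters held them, so the intervals of the changed genes are wide. Of the 10506 tested genes, 8609 had a promoter in the table (250 bases before to 50 after the start). The octamer stood in 1.44% of the 1180 promoters of genes that rose at day 3 (95% exact binomial interval 0.841% to 2.3%). It stood in 1.38% of the 1309 promoters of genes that fell (0.817% to 2.16%), against 1.36% of all 8609 (1.13% to 1.63%). The core stood in 2.97% and 2.75% of them, against 2.85%. The joint motif stood in 2 of the 8609 promoters, those of NANOG and NRARP. NRARP, a feedback inhibitor of NOTCH signalling, had 5.53, 5.28 and 4.86 in knockdown, where it was detected on no array, against 5.95, 6.28 and 5.75 in control, where it was detected on 2 of 3. Its adjusted p of 0.0468 lay close to the threshold and ranged from 0.0157 to 0.164 under other settings.

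At day 3, 3114 of 10506 tested genes (29.6%) differed between the groups, 1505 higher in knockdown (14.3%) and 1609 lower (15.3%), at a limma adjusted p under 0.05. Which direction was more frequent depended on the scaling, since 1571 were higher and 1222 lower with arrays scaled to the median of all probes, and 1696 and 1240 with the authors' log2 values. The size of the changes was uneven. At least 2-fold changes were seen for 9.66% of the tested genes, 700 higher (6.66%) and 315 lower (3%), at least 4-fold changes for 220 and 34, and at least 8-fold changes for 74 and 0. Among tested genes detected on all 6 arrays, 425 were higher and 220 lower by at least 2-fold, and 29 higher and 0 lower by at least 8-fold. Genes that crossed the detection level are left out of this set, so it limits the size of change for dim genes. Over all tested genes, the count of rises past 8-fold was 39 without background correction, 42 with the authors' log2 values and 44 with an offset of 50, against 0 falls in each. Over all tested genes the median change was -0.069, and the groups did not overlap for 43% of them (knockdown above in 19.2%, below in 23.8%). In bulk RNA, fewer cells of a kind and less RNA per cell cannot be told apart.

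**Figure D1:**
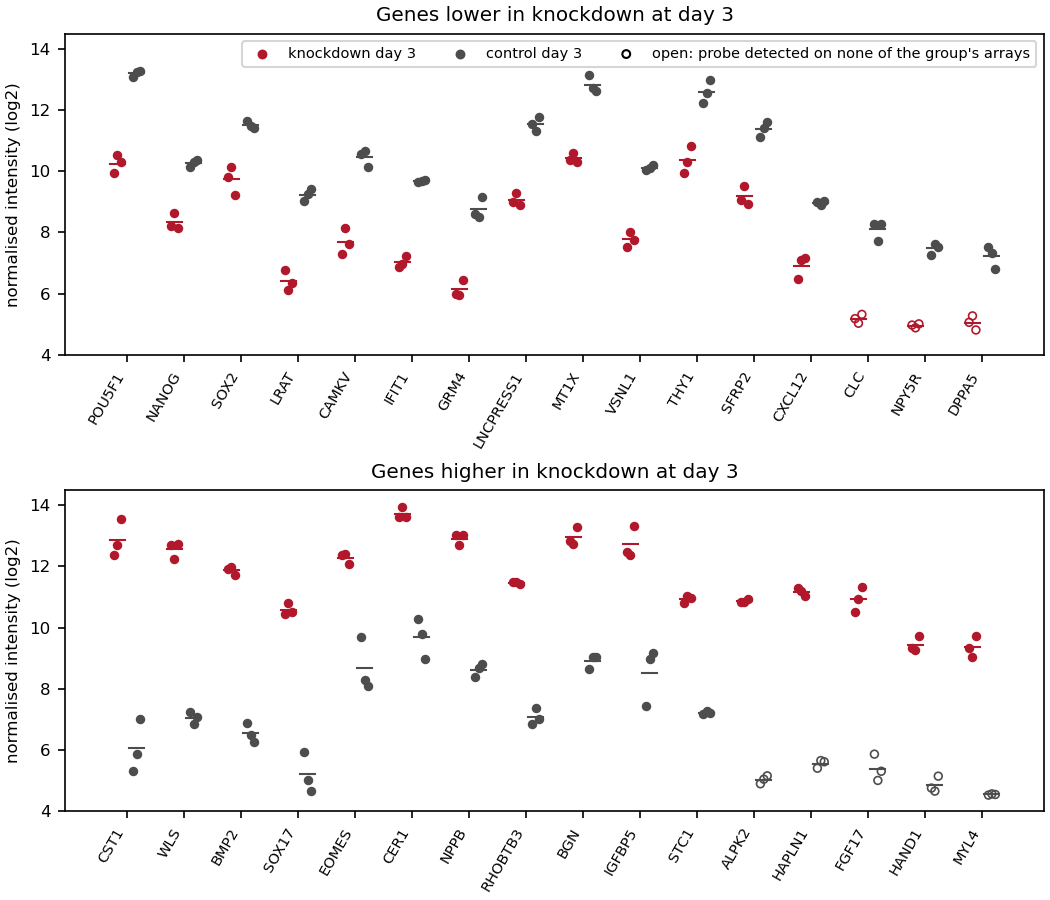
Normalised log2 intensity on each day 3 array for 16 genes lower (top) and 16 genes higher (bottom) in knockdown, with knockdown arrays in red left of control arrays in grey. Points are arrays, short lines group means, and open points mark groups in which the probe was detected on no array. POU5F1 lies at 9.95 to 10.52 in knockdown and at 13.09 to 13.29 in control. The 32 genes were chosen among changed genes, so the lack of overlap in each of them is no separate result. Over all tested genes the groups do not overlap for 43%.

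The largest falls among genes detected on all 6 arrays spanned vitamin metabolism, neuronal signalling, interferon response and metallothioneins. LRAT, which esterifies retinol for storage, had 6.76, 6.12 and 6.36 in knockdown and 9.03, 9.25 and 9.42 in control (change -2.82, SE 0.22, adjusted p = 6.02e-07). CAMKV, a kinase-like synaptic protein, had 7.31, 8.14 and 7.62 in knockdown and 10.57, 10.68 and 10.14 in control (change -2.78, SE 0.30, adjusted p = 1.38e-05). GRM4, a metabotropic glutamate receptor, had 6.00, 5.96 and 6.46 in knockdown and 8.60, 8.52 and 9.16 in control. In each of these genes, which were chosen by the size of their fall, every knockdown array lay under every control array. LNCPRESS1, a long noncoding RNA of embryonic stem cells, fell by 2.48 (SE 0.17), and VSNL1, a neuronal calcium sensor, fell by 2.35 (SE 0.16). THY1, the surface antigen CD90 of stem cells and fibroblasts, fell by 2.22 (SE 0.25), and PTPRZ1, a receptor phosphatase, fell by 2.31 (SE 0.28). SFRP2, a secreted WNT antagonist, had 9.07, 9.52 and 8.94 in knockdown and 11.12, 11.43 and 11.62 in control, a change of -2.21 (SE 0.20, adjusted p = 2.09e-06). MRAP2, an accessory protein of melanocortin receptors, fell by 2.18 (SE 0.24). CXCL12, a chemokine, had 6.49, 7.10 and 7.15 in knockdown, against 8.99, 8.90 and 9.02 in control, with a change of -2.06. Its other probes were also lower, but were detected on no knockdown array.

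The named genes include metallothioneins, small proteins that bind zinc and copper, which were chosen by the size of their fall. MT1X had 10.37, 10.61 and 10.31 in knockdown and 13.15, 12.73 and 12.62 in control (change -2.40, SE 0.18, adjusted p = 4.53e-07). MT1G fell by 2.03 (SE 0.28), with control replicate 1 at 9.25 above the other control arrays at 7.86 and 8.20. MT1H was detected on 3 control arrays and on no knockdown array, at least 2.64-fold lower. These genes have close relatives, and whether the probes separate them was not tested.

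Genes crossed the detection threshold in both directions. Of 18852 genes on the array, 8957 were detected on all 6 arrays and 7950 on none. In 76 genes (0.403%) a probe was detected on all 3 control arrays and none on any knockdown array, and 72 of them were among the genes that fell. Without control replicate 2, 142 genes were lost. For such genes the fold is a lower bound, which sets the mean of the brighter group against the lowest level of a detected probe on each array of the dim group, or the probe's own level where higher. Bounds of the lost genes were small, with a median of 1.66 among the 72, a highest of 4.86 and 23 genes at 2 or more.

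CLC, a galectin of eosinophils, headed the lost genes with 5.18, 5.03 and 5.32 in knockdown and 8.29, 7.73 and 8.27 in control, at least 4.86-fold lower (adjusted p = 6.02e-07). MYH2, a fast skeletal muscle myosin, followed at least 4.01-fold lower. NPY5R, a receptor for neuropeptide Y, had 4.97, 4.88 and 5.01 in knockdown and 7.27, 7.62 and 7.54 in control, at least 3.16-fold lower. DPPA5, a protein of pluripotent cells, had 5.06, 5.27 and 4.81 in knockdown and 7.54, 7.34 and 6.80 in control, at least 2.66-fold lower (adjusted p = 2.74e-05). In CLC, NPY5R and DPPA5 every knockdown array lay under every control array, which is no separate result because they were chosen by their loss of detection. OAS2, an interferon-induced enzyme that makes oligoadenylates, lay at least 2.44-fold lower. SULF1, which trims heparan sulphate, lay at least 2.43-fold lower, and MSC, a bHLH repressor, at least 2.40-fold lower. KCND2, a potassium channel subunit, lay at least 2.27-fold lower, and NRROS, which tethers latent TGF-beta, at least 2.50-fold lower. At day 2, 42 of the 76 lost genes were detected on all 3 control arrays, and 30 were already detected on no knockdown array.

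The largest fitted rise of the comparison was that of CST1, a secreted cystatin that inhibits cysteine proteases. Its levels were 12.37, 12.71 and 13.55 in knockdown and 5.31, 5.86 and 7.02 in control, where it was detected on 1 of 3 arrays (change 6.82, SE 0.48, adjusted p = 2.29e-07). Replicate 3 was highest in both groups, and CST1 has close paralogs that its probe may not separate.

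Among genes detected on all 6 arrays, WLS, the carrier that brings WNT proteins to the cell surface, rose the most. It had 12.69, 12.26 and 12.73 in knockdown and 7.24, 6.84 and 7.06 in control (change 5.51, SE 0.22, adjusted p = 1.36e-09). Its other probes were also higher, but were detected on no control array. BMP2, a BMP ligand, had 11.92, 11.98 and 11.71 in knockdown and 6.87, 6.48 and 6.26 in control (change 5.33, SE 0.20, adjusted p = 8.43e-10). RHOBTB3 had 11.49, 11.48 and 11.43 in knockdown and 6.86, 7.38 and 7.02 in control, a change of 4.38 (SE 0.18). In each of these genes, which were chosen by the size of their rise, every knockdown array stood above every control array. NPPB, the B-type natriuretic peptide of cardiac muscle, had 13.03, 12.69 and 13.02 in knockdown and 8.38, 8.69 and 8.80 in control (change 4.29, SE 0.27, adjusted p = 1.05e-07).

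Several large risers encode secreted or matrix proteins. IGFBP5, an IGF binding protein, rose by 4.22 (SE 0.42), with control replicate 1 at 7.42 under the other control arrays at 8.96 and 9.17. BGN, the proteoglycan biglycan, had 12.83, 12.74 and 13.29 in knockdown and 8.64, 9.04 and 9.05 in control (change 4.04, SE 0.20). STC1, the secreted hormone stanniocalcin, had 10.81, 11.04 and 10.96 in knockdown and 7.17, 7.26 and 7.19 in control (change 3.73, SE 0.13, adjusted p = 5.88e-10). COLEC12, a scavenger receptor, rose by 3.99 (SE 0.20), and PCDH7, a protocadherin, rose by 3.79 (SE 0.21, with other probes detected on no control array). SOX18, a transcription factor of vascular development, rose by 3.97 (SE 0.28). IER3, an early response gene, rose by 3.71 (SE 0.22).

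In 223 of 18852 genes (1.18%) a probe was detected on all 3 knockdown arrays and none on any control array. Of the 223, 222 were tested, 202 rose and 20 did not pass. Without control replicate 3, 355 genes were gained. Their bounds reached further than those of the lost genes. Among the 202, the median bound was 1.75, and over the gained genes 83 lay at 2 or more, 31 at 4 or more and 13 at 8 or more. At day 2, 76 of the 223 were already detected on all 3 knockdown arrays, 59 on no knockdown array, and 62 on 1 or more control arrays.

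HAPLN1, which links hyaluronan to proteoglycans, had 11.31, 11.20 and 11.02 in knockdown and 5.40, 5.65 and 5.61 in control, at least 37.9-fold higher (adjusted p = 2.11e-10). Another HAPLN1 probe was likewise detected on the 3 knockdown arrays and on no control array, but its fitted change was 1.94, against 5.62 for the probe used. FGF17, an FGF ligand, had 10.52, 10.95 and 11.34 in knockdown and 5.86, 5.00 and 5.30 in control, at least 32-fold higher. ALPK2, an alpha kinase gene of heart development, had 10.85, 10.83 and 10.95 in knockdown and 4.89, 5.04 and 5.15 in control, at least 30.8-fold higher (adjusted p = 3.26e-11). In these genes the knockdown signal was far above the detection level on each array. DKK1, a secreted WNT antagonist, lay at least 16.5-fold higher, with 9.52, 9.98 and 10.43 in knockdown and 4.91, 4.97 and 4.99 in control. CCDC81, a coiled-coil protein gene, lay at least 14.7-fold higher. HAND1, a bHLH factor of heart and trophoblast, had 9.34, 9.26 and 9.71 in knockdown and 4.75, 4.65 and 5.14 in control, at least 11.4-fold higher (adjusted p = 3.13e-09). FREM1, a basement membrane protein, lay at least 11.3-fold higher, MYL4, an atrial myosin light chain, at least 10.9-fold, and TM4SF1, a tetraspan surface protein, at least 10.7-fold. ANGPT2, an angiopoietin of blood vessels, lay at least 10.6-fold higher, MSX1, a homeobox factor downstream of BMP, at least 10.5-fold, and the metalloprotease MMP7 at least 10.4-fold. CCKBR, the receptor for gastrin and cholecystokinin, had 8.59, 9.32 and 9.21 in knockdown and 4.88, 5.24 and 4.78 in control, at least 8.61-fold higher. ENPEP, an aminopeptidase, lay at least 7.04-fold higher.

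**Figure D2:**
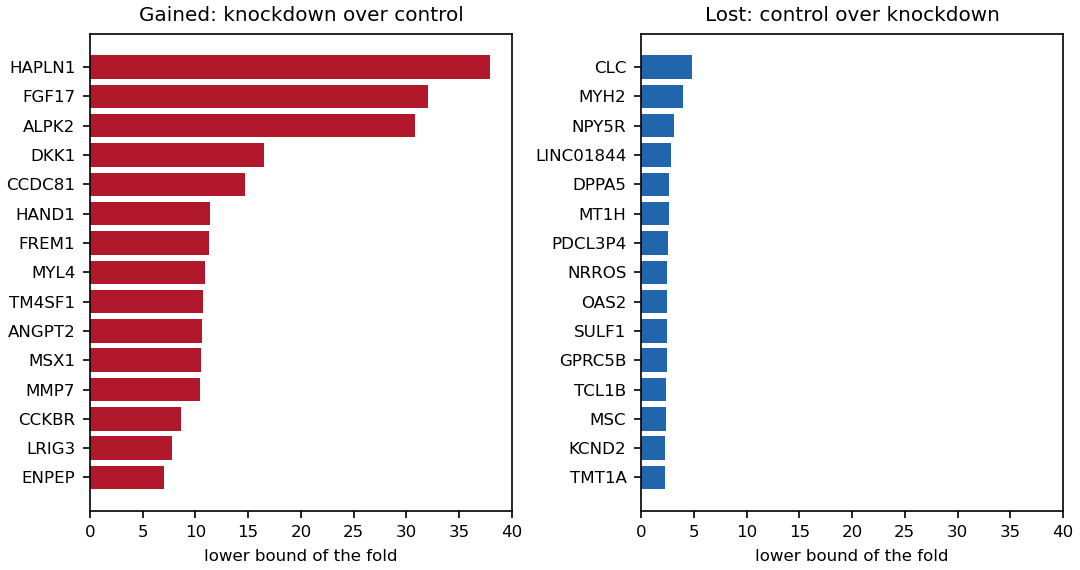
Lower bounds of the fold at day 3 for the 15 genes with the largest bounds among those gained (left, knockdown over control) and lost (right, control over knockdown), on the same linear axis. The bounds of gained genes run up to 37.9, and those of lost genes up to 4.86.

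Gene lists by role are read against the shares of all tested genes, 14.3% higher and 15.3% lower. Some genes stand in several lists, and members that were not tested were detected on too few arrays. A member that passed this filter only through the group where it is high was selected in part for that difference. Counts are therefore given with the members on the array. For some lists they are also given without the filter. Of 41 pluripotency regulators on the array, 36 were tested, of which 30 fell, 1 rose and 5 did not pass. The riser was OTX2, a homeobox factor that also marks anterior neural and endodermal cells, with 11.03, 10.94 and 10.83 in knockdown and 8.93, 8.64 and 8.63 in control (change 2.20, SE 0.15). UTF1, a chromatin protein of stem cells, fell by 2.45 (SE 0.28) and was detected on 1 of 3 knockdown arrays. ZFP42, the stem cell marker REX1, had 11.79, 11.68 and 10.97 in knockdown and 11.96, 11.47 and 11.13 in control, with overlapping groups and a change of -0.04 (SE 0.25, adjusted p = 0.928). The median of the tested regulators was -1.46, and -1.34 without the filter, against -0.069 over all tested genes. Of 22 stem cell surface and adhesion markers, 20 were tested, 8 fell and 3 rose. SLC7A3, a cationic amino acid transporter, fell by 1.03 (SE 0.14), whereas ADGRG2, an adhesion receptor, rose by 2.43 (SE 0.18). EPCAM, an epithelial adhesion molecule, changed by 0.30 (SE 0.15, adjusted p = 0.155, but 0.0355 with the authors' log2 values and 0.0431 without control replicate 3), and CDH1, E-cadherin, by 0.29 (SE 0.20, adjusted p = 0.307).

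Of 28 endoderm genes on the array, 21 were tested, 16 rose and 1 fell. Without the filter, 18 rose and the median change was 1.32. SOX17, which specifies definitive endoderm, had 10.46, 10.79 and 10.50 in knockdown and 5.94, 5.03 and 4.64 in control, where it was detected on 1 of 3 arrays (change 5.38, SE 0.27, adjusted p = 1.09e-08). CER1, a secreted antagonist of Nodal and BMP, had 13.63, 13.93 and 13.63 in knockdown and 10.27, 9.80 and 8.96 in control (change 4.05, SE 0.28), and FLRT3, an adhesion protein, rose by 4.27 (SE 0.17). EOMES, a T-box factor of the primitive streak, had 12.38, 12.40 and 12.08 in knockdown and 9.70, 8.28 and 8.10 in control (change 3.59, SE 0.36, adjusted p = 7.32e-06). The member that fell was TRIM71, an RNA-binding protein of undifferentiated cells (change -1.05). GATA4 lay at least 1.81-fold higher, and GATA6 was detected on 2 of 3 knockdown arrays and on no other array, so it was not tested. Of 26 yolk sac and extraembryonic endoderm markers, 17 were tested, 10 rose and 0 fell. DAB2, an endocytic adaptor, rose by 2.35 (SE 0.17), and LAMB1, a laminin chain, by 1.52 (SE 0.14).

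Of 40 mesoderm and cardiac genes on the array, 22 were tested, 18 rose, 2 fell, 10 were gained by detection and 17 were detected on none of the 6 arrays. Without the filter, 18 of the 40 rose and the median change was 0.43, against 2.01 over the tested members. LHX1, a homeobox factor of the organizer region, had 9.62, 9.41 and 9.20 in knockdown and 6.04, 5.57 and 5.14 in control, where it was detected on 1 of 3 arrays (change 3.83, SE 0.20). The members that fell were KDR, a VEGF receptor (change -1.52, SE 0.21, detected on 1 of 3 knockdown arrays), and TBXT, the brachyury factor of the primitive streak. TBXT had 5.14, 5.37 and 5.76 in knockdown, under detection on each array, and 7.22, 5.95 and 6.22 in control, at least 1.57-fold lower (adjusted p = 0.0118, but 0.0554 without knockdown replicate 1). EOMES and TBXT, both T-box factors of the streak, thus moved in opposite directions.

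Of 48 trophoblast markers on the array, 22 were tested, 14 rose, 0 fell and 10 were gained by detection. Without the filter, 16 rose and the median change was 0.16. The 23 detected on none of the 6 arrays include CDX2, GATA2, ELF5, GCM1 and CGA. SLC40A1, an iron exporter, lay at least 5.08-fold higher, DLX5, a homeobox factor, at least 4.71-fold, and KRT7, a simple epithelial keratin, at least 4.10-fold. GATA3, a factor of trophoblast and amnion, had 6.51, 6.43 and 7.37 in knockdown and 4.85, 5.10 and 4.96 in control, at least 1.79-fold higher (adjusted p = 0.000655). Of 17 amnion markers, 13 were tested, 9 rose and 2 fell, and 10 rose without the filter. ISL1, a LIM homeobox factor, rose by 2.21 (SE 0.20), whereas HEY1, a target of NOTCH and BMP, fell by 1.34 (SE 0.19) and GABRP, a GABA receptor subunit, fell by 1.03 (SE 0.25), with detection on 1 of 3 knockdown arrays.

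Markers of other cells that a culture could hold were listed as well. Of 31 neuroectoderm genes on the array, 16 were tested, 8 rose and 2 fell, while PAX6 and SOX1, which define neuroectoderm, were detected on none of the 6 arrays. STMN2, a neuronal microtubule regulator, rose by 2.93 (SE 0.40), and CDH2, N-cadherin, had 14.26, 14.12 and 13.98 in knockdown and 12.67, 12.64 and 12.46 in control (change 1.53, SE 0.13). Of 21 fibroblast and stromal markers, 15 were tested, 10 rose and 1, THY1, fell. COL1A1 rose by 2.59 (SE 0.30) and COL1A2, the other chain of type I collagen, by 2.18 (SE 0.31). The summed linear level of the 15 tested genes was 62460 to 83035 on the knockdown arrays and 33673 to 39659 on the control arrays, and DCN, POSTN, FAP, MGP and DPT were detected on none of the 6. Of 20 blood and endothelial markers, 8 were tested, 2 rose and 1 fell, and their summed level was 1413 to 1545 in knockdown and 911 to 1033 in control. PTPRC, CD34, CDH5, FLT1 and SPI1 were detected on none of the 6 arrays. VWF, a clotting protein of endothelium, had 8.56, 9.19 and 8.10 in knockdown and 6.77, 6.74 and 6.11 in control (change 2.07, SE 0.30). The part of such cells in these results was not tested.

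**Figure D3:**
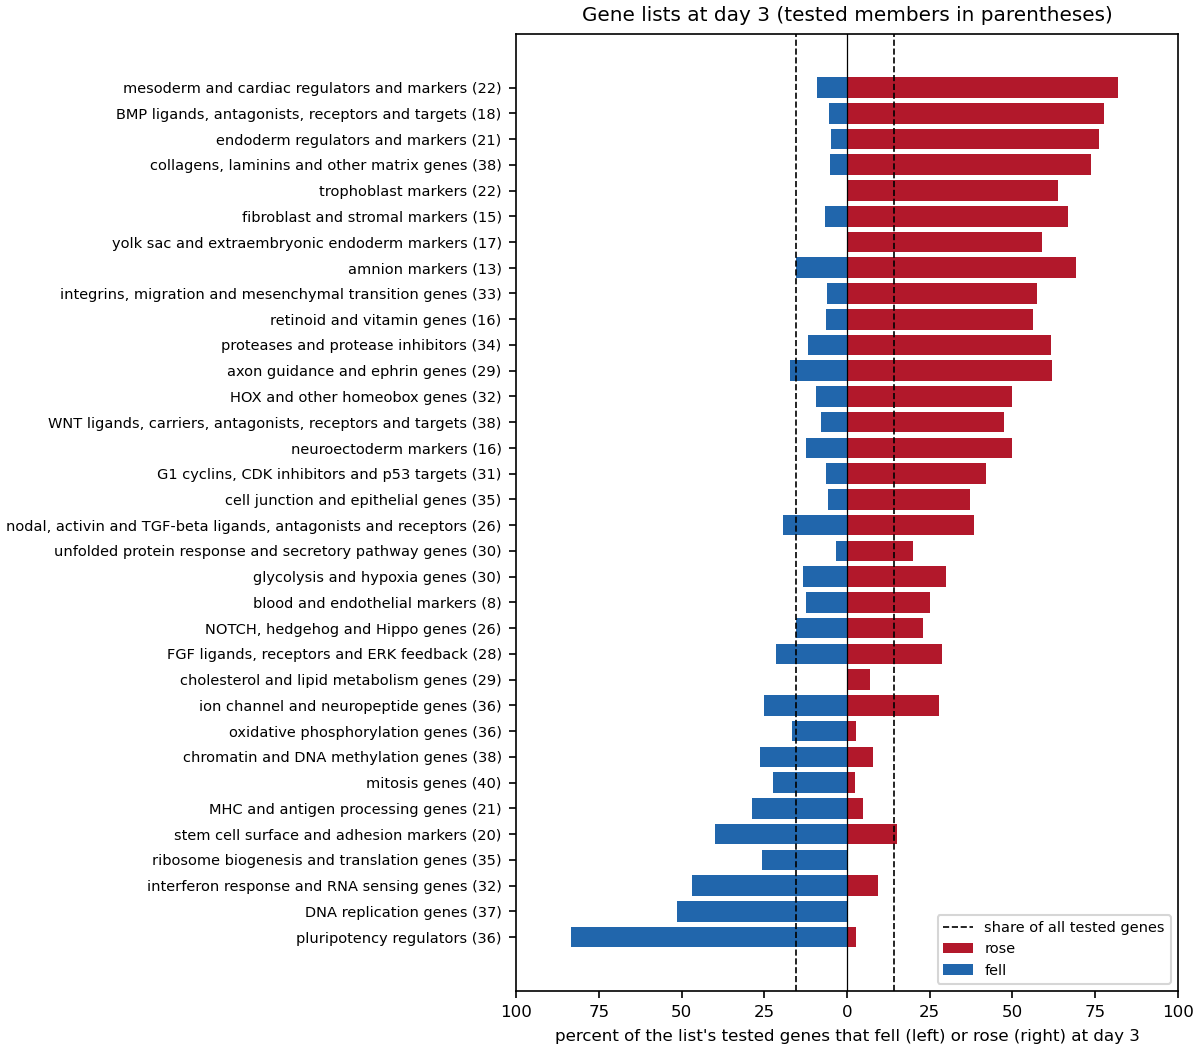
Share of each list's tested genes that fell (blue, left) or rose (red, right) at day 3, in percent, with the number of tested members in parentheses. Dashed lines mark the shares of all 10506 tested genes, 15.3% lower and 14.3% higher; members that were not tested are left out, so the bars of lists with many genes gained by detection, such as mesoderm and cardiac genes, show shares of the 22 tested members and not of the 40 on the array.

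The BMP pathway directs cells toward mesoderm and extraembryonic fates. Of 29 of its genes on the array, 18 were tested, 14 rose and 1, HEY1, fell. Without the filter, 15 rose and the median change was 0.72. Beside the ligand gene BMP2, the inhibitory SMAD6, a feedback target, had 11.06, 11.39 and 10.51 in knockdown and 7.75, 8.29 and 7.56 in control (change 3.12, SE 0.29, adjusted p = 3.59e-06). Of 52 WNT genes, 38 were tested, 18 rose and 3 fell. TNFRSF19, a WNT target and death domain receptor, rose by 4.24 (SE 0.14), with detection on 2 of 3 control arrays. DKK4, a WNT antagonist, had 10.25, 10.40 and 10.20 in knockdown and 8.70, 6.91 and 6.38 in control (change 2.95, SE 0.41). TCF7L1, a transcriptional repressor of WNT targets, fell by 0.57 (SE 0.14). AXIN2, a feedback target of WNT, had 9.37, 9.67 and 9.72 in knockdown and 9.59, 9.30 and 9.38 in control, with overlapping groups (change 0.16, adjusted p = 0.421).

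Nodal and TGF-beta genes moved both ways. Of 36 on the array, 26 were tested, 10 rose and 5 fell. LEFTY1, a feedback antagonist of Nodal, had 12.24, 12.89 and 12.42 in knockdown and 13.68, 13.91 and 13.99 in control (change -1.34, SE 0.19), and SMAD7, an inhibitory SMAD, fell by 0.92 (SE 0.17, with another probe at -0.78 and adjusted p = 0.0689). ACVR2B, an activin receptor, fell by 0.90 (SE 0.20). TGFB2 lay at least 2.05-fold higher and TGFB3 at least 1.63-fold, both being TGF-beta ligands. NODAL itself had 11.21, 11.70 and 10.77 in knockdown and 11.92, 11.82 and 11.25 in control (change -0.44, SE 0.26, adjusted p = 0.24, and 0.0245 with the replicate number as a block). Of 36 FGF and ERK genes, 28 were tested, 8 rose and 6 fell. ETV4 and ETV5, transcription factors induced by FGF signalling, fell by 1.51 (SE 0.21) and 1.22 (SE 0.18). FGF19, an FGF of the endocrine group, fell by 1.57 (SE 0.22), with detection on 1 of 3 knockdown arrays, whereas the receptor FGFR3 rose by 1.34 (SE 0.15). Of 33 NOTCH, hedgehog and Hippo genes, 26 were tested, 6 rose and 4 fell, a share of falls near the 15.3% of all tested genes. The NOTCH ligand JAG1 rose by 1.19 (SE 0.18) and the Hippo target CCN1 by 1.30 (SE 0.23), while TEAD4, which binds DNA for the Hippo pathway, fell by 1.13 (SE 0.18).

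Of 47 matrix genes on the array, 38 were tested, 28 rose and 2 fell. COL5A1, a chain of type V collagen, had 11.40, 11.09 and 11.38 in knockdown and 8.15, 8.14 and 8.55 in control (change 3.01, SE 0.18, adjusted p = 6.03e-08), and TNC, tenascin C, rose by 3.61 (SE 0.25). Both falls were in genes of the hyaluronan matrix, the proteoglycan VCAN (change -0.89, SE 0.22) and the synthase HAS3 (change -1.07, SE 0.18). Of 43 proteases and inhibitors, 34 were tested, 21 rose and 4 fell. PAPPA, which cleaves IGF binding proteins, rose by 3.15 (SE 0.23) and the metalloprotease inhibitor TIMP3 by 3.30 (SE 0.26), each with detection on 1 of 3 control arrays. TFPI, which inhibits tissue factor, rose by 2.51 (SE 0.14), while TIMP4 had 7.04, 7.35 and 7.46 in knockdown and 9.09, 8.64 and 8.99 in control (change -1.62, SE 0.18). Members of the TIMP family thus moved in opposite directions.

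Of 39 integrin, migration and mesenchymal transition genes, 33 were tested, 19 rose and 2 fell. ITGAV and ITGA5, integrin chains that bind fibronectin, rose by 2.76 (SE 0.20) and 2.74 (SE 0.14). ACKR3, a scavenging receptor for CXCL12, had 10.19, 10.29 and 9.18 in knockdown and 6.06, 6.08 and 5.82 in control (change 3.90, SE 0.25), and CXCR4, the signalling receptor for the same chemokine, rose by 3.25 (SE 0.23), with detection on 1 of 3 control arrays. The falls were those of CXCL12 and RND3 (change -0.99, SE 0.17). Both receptors of CXCL12 were thus higher and the ligand lower. Of 37 junction and epithelial genes, 35 were tested, 13 rose and 2 fell. CLDN11, a claudin, rose by 2.88 (SE 0.22), CDH11 and CDH6, type II cadherins, by 2.43 (SE 0.24) and 2.35 (SE 0.20), and CLDN10 fell by 0.83 (SE 0.13). Of 36 axon guidance and ephrin genes, 29 were tested, 18 rose and 5 fell. LGI1, a secreted neuronal protein, lay at least 3.89-fold higher and PLXNA2, a semaphorin receptor, at least 4.50-fold. The semaphorins SEMA4D and SEMA3A fell by 1.37 (SE 0.14) and 0.82 (SE 0.12), and the ephrin receptor EPHA1 fell by 1.13 (SE 0.22).

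Interferon response and antigen processing genes were lower in part. Of 43 interferon and RNA sensing genes on the array, 32 were tested, 15 fell and 3 rose. IFIT1, which binds foreign RNA, had 6.88, 6.97 and 7.24 in knockdown and 9.65, 9.68 and 9.71 in control (change -2.65, SE 0.17, adjusted p = 8.44e-08). IFIT2 fell by 2.47 (SE 0.23), and IFIT3 by 2.79 (SE 0.22), with detection on 1 of 3 knockdown arrays. Among the risers, EPSTI1, an interferon-inducible gene of epithelial and stromal cells, had 11.22, 11.55 and 11.13 in knockdown and 6.40, 6.93 and 6.27 in control (change 4.77, SE 0.25, adjusted p = 1.49e-08), and IRF1, an interferon regulatory factor, rose by 0.65 (SE 0.15). Of 26 MHC and antigen processing genes, 21 were tested, 6 fell and 1 rose. PSMB8, an immunoproteasome subunit, fell by 1.28 (SE 0.18), and HLA-DPB2, a class II pseudogene, fell by 2.71 (SE 0.37), with detection on 1 of 3 knockdown arrays. B2M, the invariant chain of class I molecules, had 11.13, 10.89 and 10.73 in knockdown and 11.05, 10.94 and 10.72 in control, a change of 0.01 (SE 0.16, adjusted p = 0.956).

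Of 38 replication genes on the array, 37 were tested, 19 fell, 0 rose and 18 did not pass, and over the settings tried 15 to 25 fell. MCM2 and MCM5, helicase subunits, fell by 1.19 (SE 0.15) and 1.22 (SE 0.25). PRIM1, the primase, had 8.68, 9.17 and 8.92 in knockdown and 10.08, 10.35 and 10.11 in control (change -1.25, SE 0.15), and GINS2 fell by 1.00 (SE 0.22). PCNA, the sliding clamp, averaged 10.68 ± 0.38 in knockdown and 10.97 ± 0.14 in control (SD, n = 3 each; change -0.29, SE 0.21, limma adjusted p = 0.334). Of 40 mitosis genes, 40 were tested, 9 fell and 1 rose, with 4 to 13 falls over the settings. CENPM, a centromere protein, fell by 0.92 (SE 0.20) and the kinase AURKA by 0.61 (SE 0.15), while ANLN, a scaffold of cytokinesis, rose by 0.76 (SE 0.18). Of 35 G1 and p53 genes, 31 were tested, 13 rose and 2 fell. CDKN2A lay at least 4.61-fold higher and CDKN2B had 10.47, 9.81 and 10.76 in knockdown and 6.09, 6.31 and 6.56 in control (change 4.02, SE 0.28), both being inhibitors of CDK4 and CDK6. Another CDKN2A probe, also detected on no control array, had a fitted change of 1.77, against 2.99 for the probe used. CDK6 rose by 1.77 (SE 0.21).

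Chromatin genes fell more often than they rose, with 10 falls and 3 rises among 38 tested of 42 on the array. DNMT3B, the de novo DNA methyltransferase of stem cells, had 11.35, 11.46 and 11.25 in knockdown and 12.95, 12.78 and 12.81 in control (change -1.50, SE 0.14, adjusted p = 3.26e-06), with other detected probes at -1.52 and -1.40. PHC1, a polycomb subunit, fell by 1.56 (SE 0.16) and HELLS, a helicase needed for DNA methylation, by 1.31 (SE 0.29). The histone variants MACROH2A1 and MACROH2A2 rose by 1.04 (SE 0.13) and 1.20 (SE 0.15). Of 37 ribosome biogenesis genes, 35 were tested, 9 fell and 0 rose, with 7 to 15 falls over the settings. MYCN fell by 1.46 (SE 0.14), while its relative MYC had 10.66, 10.63 and 10.75 in knockdown and 10.58, 10.65 and 10.58 in control (change 0.08, SE 0.12, adjusted p = 0.66). DKC1, a pseudouridine synthase of ribosomal RNA, fell by 1.06 (SE 0.13).

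Metabolic lists differed in how many members changed. Of 24 retinoid and vitamin genes on the array, 16 were tested, 9 rose and 1, LRAT, fell. CYP26A1, which degrades retinoic acid, had 14.43, 14.44 and 13.85 in knockdown and 11.89, 11.56 and 11.44 in control (change 2.61, SE 0.21), with other probes at 2.97 and 3.18. CRABP2, which carries retinoic acid to the nucleus, rose by 1.72 (SE 0.16), and RDH10 and ALDH1A3, which make it from retinol, by 1.12 (SE 0.14) and 1.14 (SE 0.15). The transcript of the storage enzyme was thus lower, and those of enzymes and a carrier of retinoic acid were higher. Of 31 glycolysis and hypoxia genes on the array, 30 were tested, 9 rose and 4 fell, with BNIP3, a mitophagy receptor, at 0.85 (SE 0.15). Of 37 respiratory chain genes on the array, 36 were tested, 6 fell and 1 rose, with 2 to 9 falls over the settings. The shares of falls in this list and in the glycolysis list were near that of all tested genes, 15.3%. ATP5MC1, an ATP synthase subunit, fell by 0.74 (SE 0.15), and COX7A1, a cytochrome oxidase isoform of muscle, rose by 1.14 (SE 0.18). Of 33 cholesterol and lipid genes on the array, 29 were tested, 2 rose and 0 fell. LIPG, endothelial lipase, rose by 3.51 (SE 0.18) and MSMO1 of sterol synthesis by 0.84 (SE 0.15). Of 33 genes of the unfolded protein response and secretory pathway on the array, 30 were tested, 6 rose and 1 fell. Among them were KDELR3, a retrieval receptor of the endoplasmic reticulum, at 1.14 (SE 0.18) and CRELD2 at -0.67 (SE 0.14).

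Of 46 ion channel and neuropeptide genes on the array, 36 were tested, 10 rose and 9 fell. GRP, gastrin-releasing peptide, had 8.76, 8.12 and 8.24 in knockdown and 4.99, 4.73 and 4.80 in control, at least 5.43-fold higher (adjusted p = 6.85e-09). Another GRP probe, also detected on no control array, had a fitted change of 1.78, against 3.54 for the probe used. The potassium channel KCNK12 rose by 2.78 (SE 0.34). SCG3, a granin of secretory granules, fell by 1.08 (SE 0.17). Of 60 homeobox genes, 32 were tested, 16 rose and 3 fell, while 26 were detected on none of the 6 arrays. GSC, a homeobox factor of the organizer region, had 7.80, 8.08 and 7.89 in knockdown and 6.01, 4.69 and 4.90 in control, where it was detected on 1 of 3 arrays (change 2.72, SE 0.29).

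The day 3 response was larger than that of day 2, when 910 genes (8.66%) were called (1815 with the replicate number as a block), of which 598 were higher (5.69%) and 312 lower (2.97%) in knockdown. The groups compared at the 2 days share no array, but both comparisons came from the same fit, which pooled each gene's spread over all arrays. Their calls are thus not independent. With only the arrays of each comparison, 2887 genes were called at day 3 and 731 at day 2. In the same direction, 825 genes were called at both days, which is 90.7% of the day 2 calls and 26.5% of the day 3 calls, and for 690 of them the day 3 change was larger in size. Their median absolute change was 1.37 at day 3 and 0.92 at day 2. A further 2288 genes were called at day 3 and not at day 2. That alone does not show a difference between the days, and 113 of the 2288 passed the test of the difference itself.

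**Figure D4:**
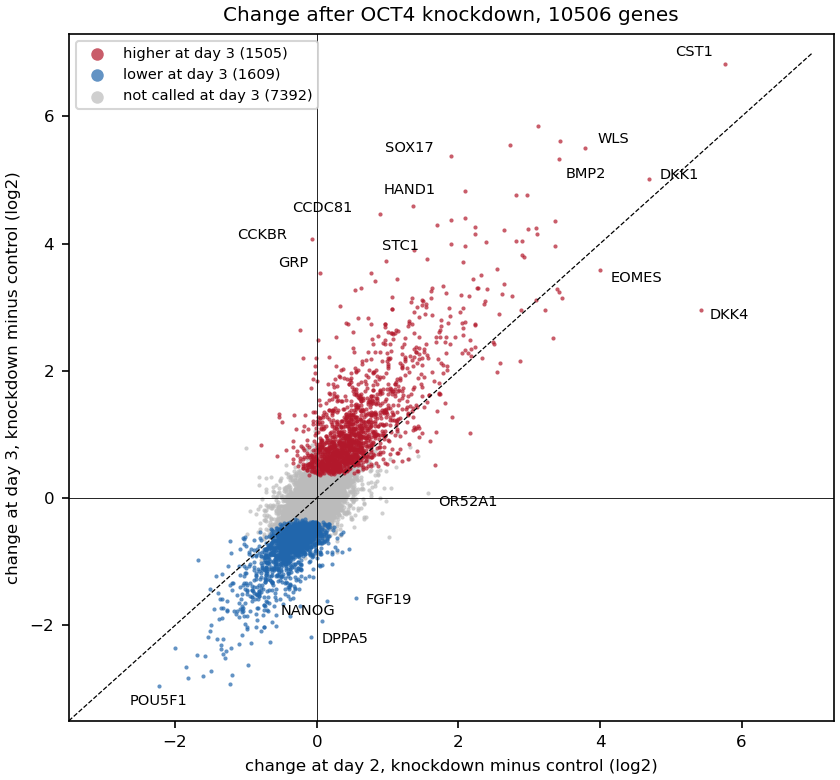
Change between knockdown and control at day 3 (vertical, log2) against the change at day 2 (horizontal, log2) for 10506 genes, coloured by the call at day 3. On the dashed line both days are equal. Values are fitted changes, which are no measured sizes where a probe was undetected in a group, as for CCKBR, GRP, HAND1 and DKK1 in control at day 3 and for DKK4 and OR52A1 in control at day 2. SOX17 and STC1 lie above the line and FGF19 below it.

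The change at day 3 minus the change at day 2 was called for 243 genes (2.31%), above 0 for 182 (1.73%) and below 0 for 61 (0.581%). Of the 243, 201 had a larger change of the same sign at day 3, 5 a smaller one and 37 opposite signs. With the replicate number as a block, 756 genes were called for this difference, and 154 without knockdown day 3 replicate 1. CCKBR and GRP passed detection on all 3 knockdown arrays at day 3 but nowhere else among the 12 arrays, so the size of the difference was not measured (adjusted p = 1.49e-05 for CCKBR and 5.01e-06 for GRP). DLX5 had the same pattern of detection (adjusted p = 5.01e-06). HAND1 was detected on no control array at either day, and its knockdown arrays had 6.75, 6.05 and 6.61 at day 2, each under every knockdown array of day 3 (adjusted p = 3.09e-05). SOX17 was detected on no control array at day 2, where its knockdown arrays had 6.82, 7.01 and 6.33 (adjusted p = 0.000241). STC1, detected on all 12 arrays, differed by 2.75 (SE 0.18, adjusted p = 5.01e-06). CCL2, a chemokine for monocytes, had 9.72, 10.52 and 9.54 in knockdown and 7.40, 7.54 and 6.89 in control at day 3, with changes of 2.65 at day 3 and -0.23 at day 2.

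For other genes the difference was below 0. FGF19 changed by -1.57 at day 3 and by 0.55 at day 2 (difference -2.11, SE 0.31, adjusted p = 0.002), with detection on 1 of 3 knockdown arrays at day 3. DPPA5 was detected on 2 of 3 arrays of each group at day 2. At day 3 it was detected on 3 control arrays and on no knockdown array (adjusted p of the difference 0.00685). Its mean rose in control from 5.96 to 7.23 between the days and fell in knockdown from 5.88 to 5.05, a level under detection. TIMP4 changed by -1.62 at day 3 and 0.14 at day 2. IDO1, which degrades tryptophan, had 5.56, 5.99 and 5.24 in knockdown and 7.86, 7.84 and 7.86 in control at day 3, with detection on 1 of 3 knockdown arrays. It had fallen by 0.66 at day 2 (adjusted p = 0.0454), and the difference was -1.60 (adjusted p = 0.00566). NANOG, which had fallen by 0.63 at day 2 (adjusted p = 0.047), had a difference of -1.31 (adjusted p = 0.0155, but 0.0515 without knockdown day 3 replicate 1), whereas that of POU5F1 was -0.73 and did not pass (adjusted p = 0.244, and 0.085 with the replicate number as a block). OR52A1, annotated as an olfactory receptor, had 6.55, 7.02 and 6.85 in knockdown and 5.22, 5.27 and 5.21 in control at day 2, where it was detected on no control array, and changed by 0.08 at day 3 (adjusted p = 0.765). AXIN2 rose by 1.05 at day 2, a difference of -0.89 (adjusted p = 0.0299) that 8 of 12 refits with an array removed no longer called (adjusted p up to 0.0856). DKK4 was higher at both days, and at day 2 it had 9.98, 10.21 and 9.89 in knockdown and 4.62, 4.75 and 4.42 in control, where it was detected on no array. Its difference passed (adjusted p = 0.0405), but 10 of 12 refits with an array removed no longer called it (adjusted p up to 0.0957).

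**Figure D5:**
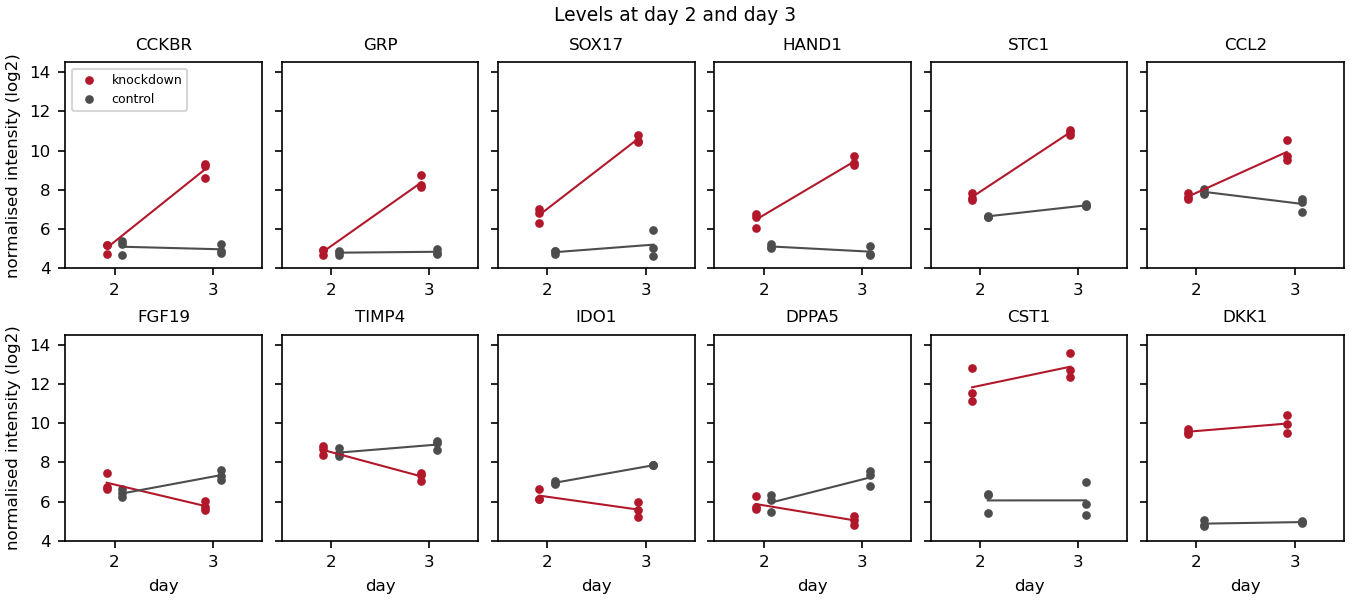
Normalised log2 intensity at day 2 and day 3 for 12 genes, with knockdown arrays in red left of control arrays in grey, and lines joining group means. Between the days the knockdown means of CCKBR, GRP and SOX17 climb while control means stay low, and CST1 and DKK1 are high in knockdown on both days.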

How the data were processed

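RNA of H1 cells was measured on 12 Illumina bead arrays, 3 for each of 4 groups, grouped by sample title. The authors deposited, per the file headers, a non-normalised signal intensity and a detection p-value for each of 48803 probes and array. They also deposited log2 values centred per probe on a baseline, with column medians near 0. Scanner, software and the steps behind both tables are not stated in the labels or headers.

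Intensities were background-corrected with detection p-values, offset by 16, quantile normalised and log2 transformed (neqc, limma 3.58.1, R 4.3.3). Probes detected at p under 0.01 on at least 3 of 12 arrays were kept (15407), and the brightest named probe stood for each of 10506 genes. Of the 48803 probes, 28098 had 1 gene in the platform annotation, 13 several and 20692 none. One limma fit held 4 group means without a block, with Benjamini-Hochberg adjustment over all genes and a threshold of 0.05. The fit and its calls were tested on simulated data.

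Same-numbered day 3 arrays deviated together (correlations 0.483, 0.389 and 0.738), so the replicate numbers, which come from the titles, were taken to pair the arrays, and a blocked fit was an alternative. Others varied scaling, background, offset, filter, probe choice, the authors' log2 values and each array left out. Named genes were core and lineage regulators, the largest changes, detection gains and losses, day differences, and up to 4 risers and 4 fallers a list. Members and lists were chosen with earlier results of these data known.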

Additional observations from a re-analysis of the deposited data

Results flagged for a closer look

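The knockdown effect differed between the days, by the test of the difference itself, for 243 genes. All values here are the fitted day 3 change minus the day 2 change on the log2 scale, with limma adjusted p under the threshold. The following genes were detected on at least 1 array of each of the 4 groups. Above 0 were STC1 at 2.75, CCL2 at 2.88, NPPB at 2.58, ACKR3 at 2.52 and RHOBTB3 at 2.49. COLEC12 differed by 2.10, VWF by 2.09, FLRT3 by 2.02, EPSTI1 by 1.96 and BMP2 by 1.91. WLS differed by 1.72, IER3 by 1.65, CXCR4 by 1.64, CDKN2B by 1.63 and CYP26A1 by 1.60. COL5A1 differed by 1.47, ADGRG2 by 1.46 and ITGA5 by 1.40. TFPI differed by 1.28, LIPG by 1.18, OTX2 by 1.16, TNFRSF19 by 1.14, FGFR3 by 1.12 and CDH2 by 0.91. Below 0 were FGF19 at -2.11, TIMP4 at -1.76, GRM4 at -1.65, IDO1 at -1.60 and NANOG at -1.31. VSNL1 differed by -1.14, HAS3 and MT1X by -1.12 each, PRIM1 by -1.08 and AXIN2 by -0.89.

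Other genes were detected on no array of 1 or more groups, so their fitted values include signal not above background, are no measured sizes and have no order. Above 0 these were ALPK2 (2.72), ANGPT2 (2.32), CCDC81 (3.57), CCKBR (4.14), DLX5 (2.76), FGF17 (2.82), FREM1 (1.92), GATA4 (1.47), GRP (3.49), HAND1 (3.23), HAPLN1 (2.20), MSX1 (1.05), MYL4 (2.74), PLXNA2 (1.41), SLC40A1 (2.59), SOX17 (3.48) and TGFB2 (1.47). Below 0 they were CLC (-1.68), DKK4 (-2.48), DPPA5 (-2.11), NPY5R (-1.24), OAS2 (-1.34) and OR52A1 (-1.49).

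Of the genes of both kinds, NANOG, CDH2, VSNL1, CXCR4, PRIM1, MSX1, LIPG, OAS2, TGFB2, MT1X, HAS3, DKK4, CDKN2B, VWF and AXIN2 lost the call in 1 or more fits that left out an array. ADGRG2, CLC and FGFR3 lost it without the replicate 3 arrays, and OTX2 lost it there and with the mean of kept probes.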

How the results depend on the processing

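Of 167 genes named, 0 reversed under 23 alternatives, where a reversal was counted only for a gene called in either fit. Many were named for the size of their change. Blocking, leaving out a day 2 array and fitting day 3 arrays alone cannot alter a day 3 change. The 0 was thus largely fixed in advance. NRARP and TBXT lost their call in 1 or more alternatives, and EPCAM and NODAL gained a call. The day 3 count was 3114, 4536 with the replicate block and 2372 to 2815 with 1 day 3 array left out. Leaving out 1 day 2 array, which is not in this comparison, gave 3006 to 3249. The count for the difference between days was 243, 756 with the replicate block, and 154 to 259 with 1 array left out, the lowest without knockdown day 3 replicate 1. The day 2 count was 910, 1815 with the replicate block, and 598 to 887 with 1 day 2 array left out, the lowest without control day 2 replicate 1. Leaving out 1 day 3 array gave 838 to 953 at day 2. Blocking also brought NODAL past the threshold. Detection on at least 2 of 3 arrays against 0 of 3 gave 348 gained and 159 lost genes, and leaving out the replicate 3 arrays, chosen after seeing the data, gave 394 and 123. With 1 array left out, 233 to 355 were gained (355 without control day 3 replicate 3) and 83 to 142 lost (142 without control day 3 replicate 2), where 2 arrays then sufficed in the reduced group. The share of day 3 calls that were higher was 48.3%, 45% with median scaling, 56.2% with scaling to the median of all probes, 57.8% with the authors' log2 values and 44.9% with the replicate block. Signal near the detection level limits the folds of genes detected in 1 group only to bounds.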

Other observations

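Of the 15407 kept probes, 2060 had no gene name in the annotation used here. Of these 2060, 209 were higher and 266 lower at day 3, beside 14.3% and 15.3% of all tested genes. Of 2373 genes with several kept probes, 4 had probes called in opposite directions at day 3.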
